A study of Mus musculus with 40 samples.

Results

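The 36 genes described here are proteasome genes. They encode 31 standard subunits of the particle, its 3 immunoproteasome subunits, an assembly factor (Pomp) and a transcription factor of proteasome genes (Nfe2l1). They were picked from a list of gene symbols, and all 36 were found among the 24499 genes of the deposited count tables. All 36 passed the filter on low counts that left 14355 genes to test, and the lowest count of any of them in any library was 76. Each symbol matched 1 protein-coding gene of the GENCODE vM21 annotation of GRCm38. The genes the results turn on are Psmd8 (chr7:29174188-29180701, minus strand), Psmd4 (chr3:95032694-95042614, minus strand), Nfe2l1 (chr11:96817414-96829968, minus strand), Psmb5 (chr14:54614119-54618022, minus strand) and Psmb8 (chr17:34197721-34201454, plus strand).

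Messenger RNA of whole livers from male C57BL/6 mice was sequenced in 40 libraries that fall into 8 groups. The first treatment was a diet labelled BD or a diet with 0.05% (w/w) 3,5-diethoxycarbonyl-1,4-dihydrocollidine (DDC), a porphyrin-forming compound used to scar the liver. Livers with no second treatment form the groups Control 0D (BD, n = 4) and DDC 0D (DDC, n = 4). After BD as the first treatment, Control 28D received BD again (n = 5), HFD received HFD (n = 6) and EtOH received HFD with ethanol (n = 4). After DDC, the same second treatments gave DDC+Cont (BD, n = 5), DDC+HFD (HFD, n = 6) and DDC+EtOH (HFD with ethanol, n = 6). Ethanol was fed through a gastric tube for up to 28 days, with a daily dose that reached 27 g per kg, and the labels spell out neither BD nor HFD. Ages are not given, and no label ties libraries to litters or cages, so p-values measure the spread between these libraries.

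The proteasome is the barrel-shaped protease that breaks down proteins tagged with ubiquitin. Its core is a stack of outer alpha rings and inner beta rings, and 3 kinds of beta subunit (Psmb5, Psmb6 and Psmb7) do the cutting. A cap of ATPases (Psmc genes) and non-ATPase subunits (Psmd genes) binds the tagged protein, removes the ubiquitin and threads the chain into the core. In immune cells and under interferon gamma, Psmb8, Psmb9 and Psmb10 can take the place of Psmb5, Psmb6 and Psmb7 to form the immunoproteasome, which favours peptides for MHC class I molecules. When proteasome activity falls short, the factor encoded by Nfe2l1 (NRF1) is cleaved by the protease of Ddi2 and switches on subunit genes through antioxidant response elements. In liver, proteasome function is studied because aggregates of keratin and ubiquitin, known as Mallory-Denk bodies, form under DDC and in alcoholic liver disease.

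The libraries held 7197939 to 26398061 reads on genes (median 13653548). Levels are given as CPM, each gene's share of its library's counted reads on a fixed scale, corrected with TMM factors, which set the typical gene equal between libraries. In DDC 0D these factors (1.22 to 1.23) lay above those of all other libraries (0.897 to 1.11), and the share of reads that aligned to more than 1 place (17.1% to 18.5%) lay below those of all other groups (20.1% to 28.7%). All 10 hepatocyte markers were read in every group. In 7 libraries (1 HFD, 1 DDC+Cont, 3 DDC+HFD and 2 DDC+EtOH) the sum of 15 pancreatic enzyme transcripts exceeded 1000 CPM, reaching 11072 CPM. Exons of 7 of the 36 genes share bases with another gene of the count tables. No source used here gives the strand setting of the counting, so reads in such stretches cannot be assigned to 1 of the 2 genes.

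Across the 8 groups the proteasome genes kept to a narrow range. The highest group mean of a member was 1.13 to 1.82 times its lowest, with a median of 1.29, against 1.59 over 14297 tested genes. Those genes were not matched to the members by count. The members' mean counts per library ran from 167 (Psmb9) to 2752 (Psmd2), and this fold can also be wider for genes with few counts. Psmd8, a subunit of the lid of the cap, had the widest range (1.82) and Psmc5, an ATPase, the narrowest (1.13). Levels of different genes were compared as CPM per kb of all annotated exon bases of the gene, so the order depends on that length. On that scale Psmb5, the chymotrypsin-like site, was highest at 85.7, followed by Psma6 of the alpha ring at 62.4. Psmb5 has 0.899 kb of such bases and Psmd2 4.04 kb. In CPM alone, Psmb5 (mean over all libraries 76.3) stood below Psmd2 (188). The immunoproteasome genes stood low in that order, with Psmb10 at 17.1 (rank 29 of 36), Psmb8 at 8.43 (rank 35) and Psmb9 at 3.09 (rank 36). Summed over 31 standard subunits, the group means ran from 2499 CPM in DDC+Cont to 2992 CPM in EtOH, and the 3 immunoproteasome genes together took 61.6 to 76.2 CPM.

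Promoter sequence was read for all members that had a promoter entry. RefSeq promoters of GRCm38.p6 (250 bases before to 50 bases after the annotated start) were available for 30 of the 36 genes, in 36 entries. The antioxidant response element core, TGACNNNGC on either strand, was found for 4 of these 30 genes (Psmb5, Psmb6, Psmc6 and Psmd12), in 11.1% of the entries against 12.4% of 32851 promoters. The gamma-activated sequence TTCNNNGAA was found for Psmb8 and Psmd2, in 5.56% of entries against 8.30% of all promoters. The interferon response core GAAANNGAA was found for Pomp, Psmb3, Psmb4, Psmc2 and Psmd4, in 13.9% against 8.56%. Shown as examples are the matches of 2 catalytic subunits, of the subunit that replaces Psmb5 and of the ubiquitin receptor Psmd4. Each run reads 5′ to 3′ on the gene's own strand, with the match in capitals. The run of Psmb5 lies at chr14:54618024-54618052 on the minus strand and that of Psmb6 at chr11:70525338-70525356 on the plus strand. The run of Psmb8 lies at chr17:34198088-34198116 on the plus strand and that of Psmd4 at chr3:95042675-95042703 on the minus strand. The Psmb8 run lies inside the GENCODE span of that gene given above, ahead of a RefSeq start that is also within the span.
Psmb5, antioxidant response element core: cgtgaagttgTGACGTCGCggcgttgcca
Psmb6, antioxidant response element core: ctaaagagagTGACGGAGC
Psmb8, gamma-activated sequence: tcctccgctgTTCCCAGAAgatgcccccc
Psmd4, interferon response core read on the other strand: taaccaacctTTCCATTTCtgtggcgcct
A match describes the letters only, and binding was not measured.

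DDC diet gave the most calls of the 13 comparisons made. Relative to the typical gene, 17 of the 36 proteasome genes (47.2%) were lower in DDC 0D than in Control 0D and 1 was higher, by edgeR's quasi-likelihood test at a Benjamini-Hochberg adjusted p under 0.05. Over all 14355 genes tested, 24.5% were called lower and 27.5% higher. The log2 fold change was below 0 for 34 of the 36, with a median of -0.24 against 0.01 over all genes. This direction rests on the scaling. With library totals and no scaling factor, an alternative chosen after seeing the data, the median of all genes moved to 0.36 and that of the proteasome genes to 0.11, 6 members were called higher and 0 lower, and the distance of the members' median from that of all genes stayed at -0.25. The decreases given for DDC 0D are therefore relative to the typical gene and not to all reads.

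**Figure D1:**
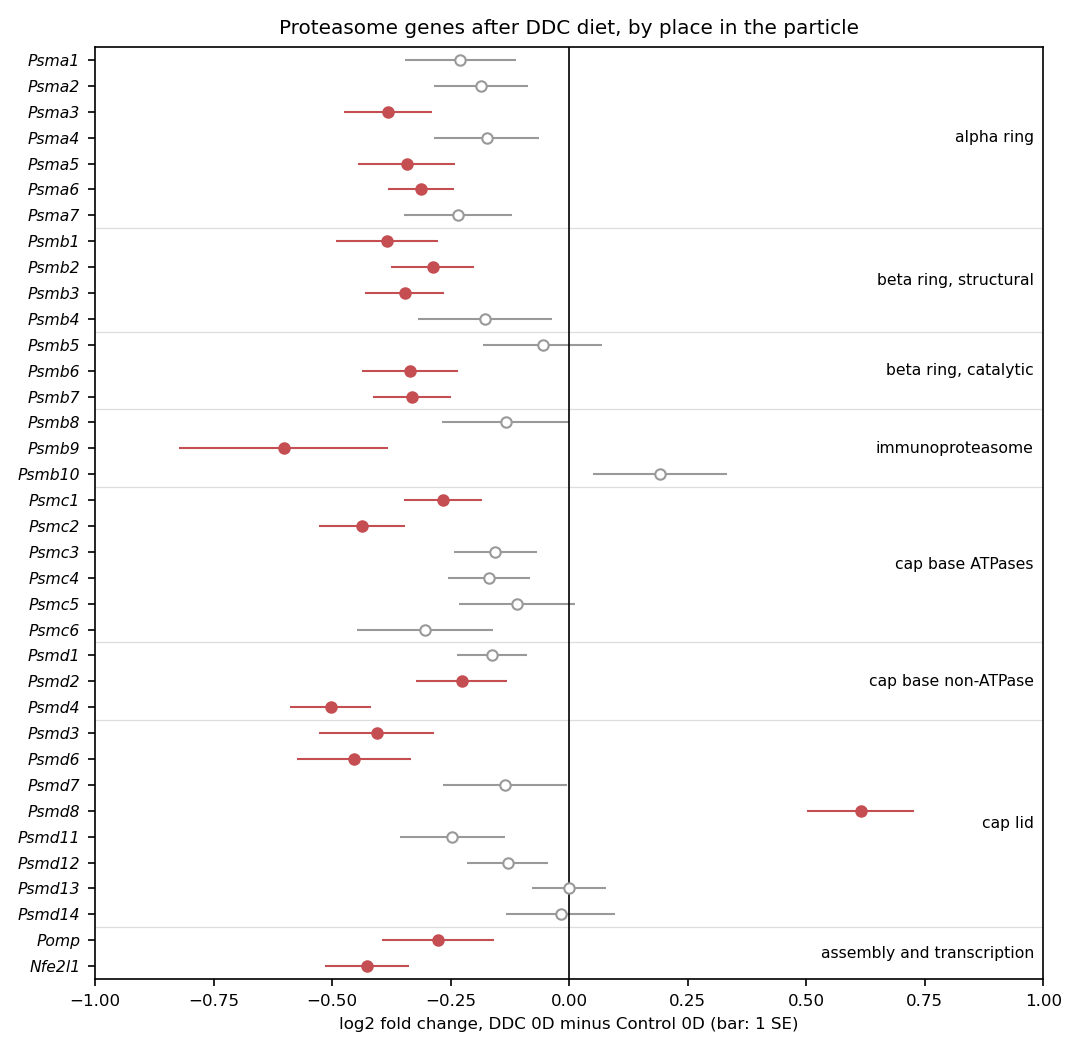
Log2 fold change of the 36 proteasome genes in DDC 0D against Control 0D (4 libraries each, TMM scaling), grouped by place in the particle; points are edgeR estimates, bars 1 SE, and filled red points have an adjusted p under 0.05. Psmd8 at 0.62 stands alone on the right, while 34 of 36 points lie left of 0 with this scaling (8 with no scaling factor).

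In the alpha ring, which gates the core, 3 of 7 genes (42.9%) fell relative to the typical gene, where 24.5% of all genes did. All 7 estimates lay below 0 (-0.38 to -0.17). Psma6 read 82.0, 83.4, 79.9 and 78.5 CPM in the Control 0D libraries and 66.5, 64.8, 65.5 and 63.8 CPM in DDC 0D. The groups did not overlap, and the log2 fold change was -0.31 ± 0.07 (SE, edgeR adjusted p = 0.00028). Psma3 read 103, 119.9, 113 and 111 CPM in Control 0D and 84.7, 79.1, 87.6 and 91.8 CPM in DDC 0D (log2 fold change -0.38 ± 0.09, edgeR adjusted p = 0.00071). Psma5 was the third gene called, at -0.34.

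Of the structural beta subunits, 3 of 4 fell by the same measure (24.5% of all genes did), and Psmb4 did not pass (-0.18, edgeR adjusted p = 0.30). Psmb3 read 72.6, 71.4, 71.8 and 73.9 CPM in Control 0D and 60.7, 50.3, 58.9 and 57.7 CPM in DDC 0D, with a log2 fold change of -0.35 ± 0.08 (edgeR adjusted p = 0.00065). Psmb1 read 122, 128, 124 and 131 CPM against 101, 80.2, 96.2 and 109 CPM, at -0.38 ± 0.11 (edgeR adjusted p = 0.0027). Neither gene had a DDC 0D library as high as the lowest Control 0D library.

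The catalytic subunits did not move alike. Psmb7, the trypsin-like site, read 111, 126, 123 and 124 CPM in Control 0D and 102, 85.0, 99.9 and 97.4 CPM in DDC 0D (log2 fold change -0.33 ± 0.08, edgeR adjusted p = 0.00079). Exons of Psmb7 share 405 bases with Nek6 on the other strand, which stood at 0.24 (edgeR adjusted p = 0.056). Psmb6, the caspase-like site, read 118, 124, 122 and 123 CPM against 103, 78.3, 102 and 102 CPM (-0.34 ± 0.10, edgeR adjusted p = 0.0054). Replicate 6 of DDC 0D stood apart at 78.3 CPM. Over 15 other settings the log2 fold change of Psmb6 lay between -0.40 and -0.24, and the call was lost in 1 of them. Psmb5 read 84.5, 78.0, 87.0 and 81.7 CPM in Control 0D and 94.9, 64.5, 82.9 and 76.4 CPM in DDC 0D. These Psmb5 ranges overlapped, and the test gave -0.06 ± 0.13 (edgeR adjusted p = 0.74).

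Among the ATPases of the cap base, which unfold substrates, 2 of 6 (33.3%) were called lower relative to the typical gene, not far from the 24.5% of all genes. Psmc2 read 84.6, 87.0, 84.1 and 82.9 CPM in Control 0D and 63.5, 62.0, 61.5 and 63.1 CPM in DDC 0D, a tight separation with a log2 fold change of -0.44 ± 0.09 (edgeR adjusted p = 0.00010). Psmc1 read 101, 108, 103 and 107 CPM against 94.5, 87.2, 84.6 and 82.7 CPM (-0.27 ± 0.08, edgeR adjusted p = 0.0061). The other ATPases had estimates from -0.30 (Psmc6) to -0.11 (Psmc5) and did not pass.

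Psmd4, a ubiquitin receptor of the cap base, had the smallest adjusted p of all 36 genes. It read 114, 124, 116 and 117 CPM in Control 0D and 94.8, 70.1, 86.1 and 81.3 CPM in DDC 0D, a difference of -29.4% in the means. Its log2 fold change was -0.50 ± 0.08 (edgeR adjusted p = 5.1e-06). Psmd2, the scaffold on which ubiquitin shuttles dock, read 196, 207, 209 and 197 CPM against 179, 190.0, 164 and 158 CPM and passed narrowly (-0.23 ± 0.10, edgeR adjusted p = 0.045), a call that 7 of 15 other settings lost. Psmd1, the other scaffold, stood at -0.16 and did not pass.

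The lid of the cap held both directions, with 2 of 8 genes called lower (25%) and 1 higher (12.5%). Over all genes 24.5% were called lower and 27.5% higher, so the lid's share called lower was near that of all genes. Psmd8 rose, from 112, 121, 124 and 124 CPM in Control 0D to 210.2, 169.6, 183 and 174 CPM in DDC 0D. Every DDC 0D library lay above every Control 0D library, and the log2 fold change was 0.62 ± 0.11 (edgeR adjusted p = 1.9e-05), or 0.97 without a scaling factor. Psmd6 read 76.5, 87.1, 86.6 and 82.2 CPM in Control 0D and 71.9, 49.3, 62.7 and 59.0 CPM in DDC 0D (-0.45 ± 0.12, edgeR adjusted p = 0.0016). Psmd3 was also lower relative to the typical gene (-0.41). Of the other lid genes, Psmd14, the deubiquitinase that removes the ubiquitin chain, stood at -0.02 and did not pass, and Psmd13 had the estimate nearest to 0. Exons of Psmd13 share 342 bases with Sirt3 on the other strand, which was itself lower in DDC 0D (-1.03, edgeR adjusted p = 1.7e-08).

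Nfe2l1 and Pomp were both lower by this measure. Nfe2l1 read 112, 122, 133 and 121 CPM in Control 0D and 83.4, 96.4, 98.2 and 84.3 CPM in DDC 0D (log2 fold change -0.43 ± 0.09, edgeR adjusted p = 9.3e-05). Pomp, the chaperone that is consumed as a new core closes, read 85.4, 81.3, 85.8 and 86.2 CPM against 73.5, 61.7, 74.4 and 70.1 CPM (-0.28 ± 0.12). The groups of Pomp did not overlap, but its edgeR adjusted p of 0.048 was close to the threshold and the call was lost in 10 of 15 other settings.

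The immunoproteasome genes went different ways. Psmb8 read 36.1, 20.0, 21.8 and 21.4 CPM in Control 0D and 22.7, 21.5, 24.7 and 21.2 CPM in DDC 0D (log2 fold change -0.13 ± 0.13, edgeR adjusted p = 0.42). Psmb10 read 33.1, 23.9, 24.7 and 26.0 CPM against 36.3, 22.4, 31.6 and 32.4 CPM (0.19 ± 0.14, edgeR adjusted p = 0.26). Psmb9 read 22.2, 9.98, 8.57 and 10.8 CPM in Control 0D and 8.68, 7.31, 9.24 and 8.41 CPM in DDC 0D, and was called lower (-0.60 ± 0.22, edgeR adjusted p = 0.020). Control 0D replicate 1 was the highest library of its group for all 3 genes, and without it Psmb9 gave -0.21 (edgeR adjusted p = 0.39). Psmb9 shares 212 exon bases with Tap1 on the other strand, a peptide transporter gene, which was itself lower in DDC 0D (-0.94, edgeR adjusted p = 2.3e-06).

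Markers of other cells moved with the same groups, in both directions. The summed leukocyte markers, all 6 of them read, ran from 165 to 196 CPM in Control 0D and from 308 to 410 CPM in DDC 0D. Bile duct markers (8 of 8 read) ran from 39.4 to 49.5 CPM in Control 0D and from 927 to 1083 CPM in DDC 0D, and stellate cell markers (7 of 7 read) from 279 to 309 CPM and from 1055 to 1249 CPM. Hepatocyte markers ran from 94284 to 102388 CPM in Control 0D and from 59624 to 74136 CPM in DDC 0D. Endothelial markers also went down, from 390 to 428 CPM in Control 0D to 328 to 352 CPM in DDC 0D (3 of 6 called lower, 0 higher). Of 6 B and plasma cell markers 2 were called lower and 0 higher. Of 6 tested T and NK cell markers 3 were called higher and 1 lower, and of 7 macrophage markers 6 were called higher and 0 lower. The part of these shifts in the proteasome values was not tested, and in whole liver fewer cells of a type and less RNA per cell cannot be told apart.

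Genes around the proteasome were read as lists, and their directions are again relative to the typical gene. Of 17 other subunits, regulators and assembly factors, 6 fell and 1 rose. Psmd10, an assembly chaperone of the cap also known as gankyrin, rose from 7.45 to 13.5 CPM (log2 fold change 0.85 ± 0.12, edgeR adjusted p = 1.6e-07). Adrm1, a ubiquitin receptor, fell (-0.52), as did Psmg1, a chaperone of alpha ring assembly (-0.45), and Psmd9, a chaperone of the base (-0.37). Of 15 genes of NRF1 processing and its partners, 8 fell and 3 rose. Ddi2, the protease that activates NRF1, fell from 97.8 to 46.9 CPM (-1.06 ± 0.15, edgeR adjusted p = 1.4e-07), and Sel1l (-0.87) and Ngly1 (-0.47), which act on NRF1 at the endoplasmic reticulum, fell with it. The small MAF partners Maff (2.16) and Mafk (1.01) and the related factor Nfe2l2, or NRF2 (0.79), rose.

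Of 12 genes of ubiquitin supply and shuttling, 7 fell and 2 rose in DDC 0D. Ubqln1, a shuttle that carries ubiquitin-tagged proteins to the cap, fell from 191 to 118 CPM (-0.70 ± 0.09, edgeR adjusted p = 5.2e-08), and Rad23b, another shuttle, fell by 0.51 on the log2 scale. Sqstm1, the autophagy receptor p62 and a component of Mallory-Denk bodies, rose from 445 to 671 CPM (0.59 ± 0.18, edgeR adjusted p = 0.0062). Of 12 tested genes of MHC class I loading and the interferon gamma response, 4 fell, among them Tap1, B2m (-0.46) and Erap1 (-0.38), and 3 rose, among them Irf8 (1.29) and Cxcl10 (1.55). In those 4 lists the medians were -0.15, -0.28, -0.35 and -0.12, in the order given. The counts stand beside 24.5% of all genes called lower and 27.5% called higher, and those of the MHC class I and interferon gamma list are near these shares in both directions.

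The second question was whether the DDC differences were still present after BD as the second treatment. They were not detected. The title of DDC+Cont gives no day, and its difference from Control 28D is called the DDC effect at 28D here. None of the 36 genes was called between DDC+Cont and Control 28D by edgeR (2 at an unadjusted p under 0.05, and 0 by DESeq2), where 1.52% of all genes were called in either direction. The summed standard subunits were 2963 ± 42.4 CPM in Control 0D and 2619 ± 149 CPM in Control 28D (SD, n = 4 and 5), and 2570 ± 173 CPM in DDC 0D and 2499 ± 110.0 CPM in DDC+Cont (SD, n = 4 and 5). Both DDC means differed by less than 1 SD, while the ranges of both control groups did not overlap, and neither sum was tested. The smallest adjusted p belonged to Psmd14 (-0.24 ± 0.10, edgeR adjusted p = 0.33). Psmd8 read 113, 115, 117, 108 and 87.1 CPM in Control 28D and 104, 115, 109, 90.3 and 90.1 CPM in DDC+Cont, so the groups overlapped.

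The difference between the DDC effect at 28D and that at 0D was tested as 1 contrast. It called 4 members higher (Psmc2, Psmd4, Psmd6 and Nfe2l1), or 11.1%, where 14.5% of all genes were called higher. It called 1 lower (Psmd8), or 2.78%, where 17.6% of all genes were. For Psmd8 the log2 fold change was 0.62 at 0D and -0.09 at 28D, a difference of -0.70 ± 0.15 (edgeR adjusted p = 0.00047). For Nfe2l1 it was -0.43 at 0D and 0.02 at 28D, a difference of 0.44 ± 0.12 (edgeR adjusted p = 0.0034), and for Psmd4 the difference was 0.42 ± 0.11 (edgeR adjusted p = 0.0042). Psmc2 and Psmd6 differed by 0.38 and 0.45. Of the called genes only Psmd8 and Nfe2l1 were also called in DDC+Cont against DDC 0D. Psmd4 stood at 0.15 there and at -0.27 in Control 28D against Control 0D, neither of them called, so the control groups also entered its difference. Psma5 was next, at 0.34 with an edgeR adjusted p of 0.053. With no scaling factor the median of all genes was -0.29, none of the 4 was called, and Psmd8 was called lower with Psmd13 and Psmd14. Without DDC 0D replicate 5 the count was 9.

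**Figure D2:**
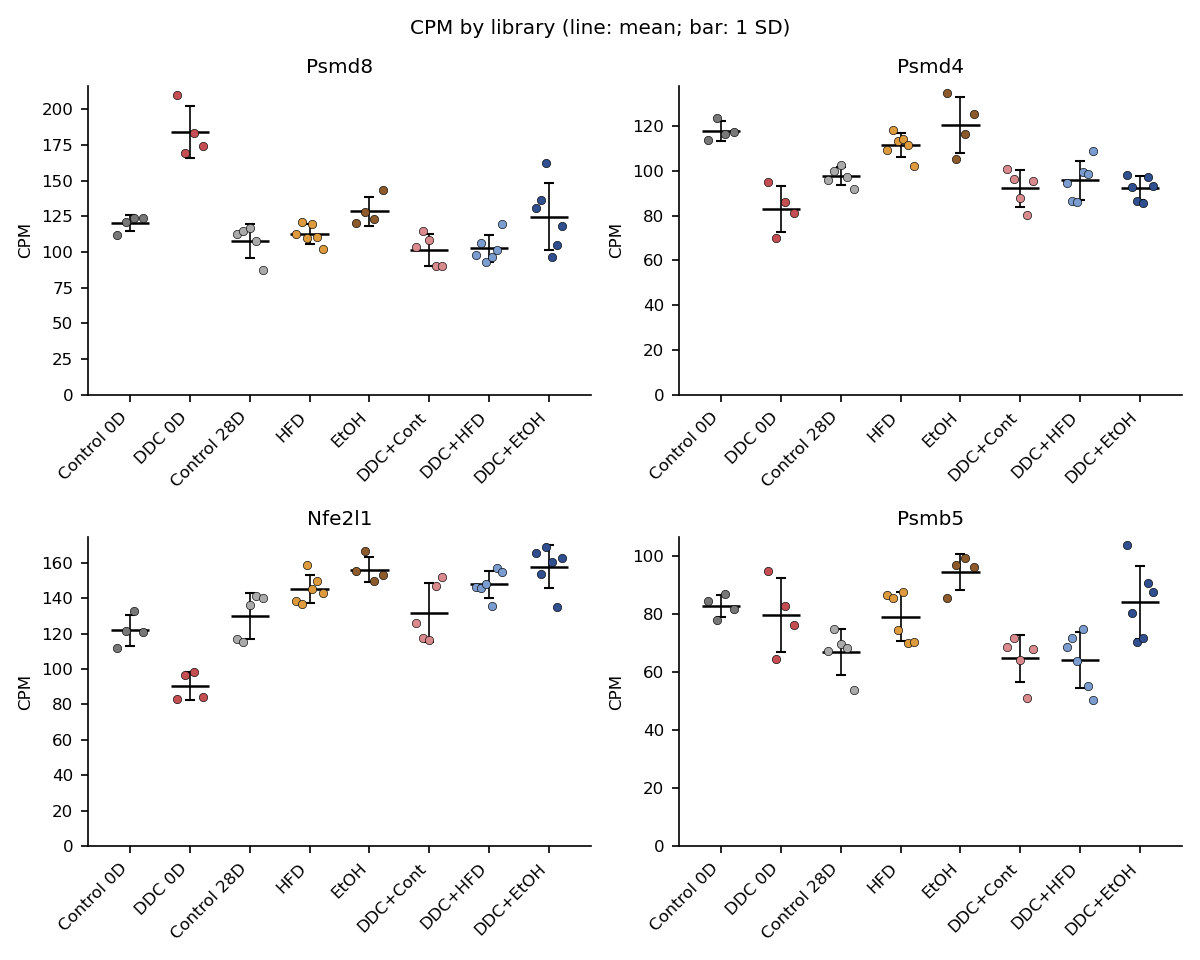
CPM (TMM-scaled) of Psmd8, Psmd4, Nfe2l1 and Psmb5 in each of the 40 libraries by group; points are libraries, lines group means and bars 1 SD. In DDC 0D, Psmd8 stands at 169.6 to 210.2 CPM, above every other library, and Nfe2l1 at 83.4 to 98.2 CPM, below every other library.

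Set directly against DDC 0D, which also entered the comparisons above, DDC+Cont had 3 members higher (20.2% of all genes were called higher) and 4 lower (23.2%), with a median log2 fold change of 0.05 against -0.0046 over all genes. The members' shares, 8.33% and 11.1%, were below those of all genes. Psmd8 was lower in DDC+Cont, at 104, 115, 109, 90.3 and 90.1 CPM against 169.6 to 210.2 CPM in DDC 0D (log2 fold change -0.86 ± 0.11, edgeR adjusted p = 3.4e-08). Nfe2l1 was higher, at 126, 118, 116, 147 and 152 CPM (0.54 ± 0.08, edgeR adjusted p = 2.3e-06). Psmb8 was higher as well, at 26.6, 32.3, 36.1, 26.4 and 27.0 CPM against 21.2 to 24.7 CPM (0.40 ± 0.13, edgeR adjusted p = 0.010). None of these 3 genes had overlapping groups. Psmd3 was called higher (0.29), and Psmd14 (-0.34), Psmc4 (-0.24) and Psmb5 (-0.30) lower. With no scaling factor 21 members were called lower and only Nfe2l1 higher, while the median of all genes stood at -0.30.

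The BD groups without DDC give the drift between both times. Control 28D against Control 0D had 0 members called by edgeR, with 16 at an unadjusted p under 0.05 and 1 called lower by DESeq2, and 2.46% of all genes called in either direction. The estimates lay below 0 for 30 of 36 members (median -0.16 against 0.01 over all genes). Psmd4 came nearest to the threshold (-0.27 ± 0.08, edgeR adjusted p = 0.060), then Psmc4 (-0.25), Psmc3 (-0.24), Psmc2 (-0.23), Psmb3 (-0.21) and Psmb5 (-0.31). Psmb8 read 31.2, 29.9, 32.4, 32.0 and 27.1 CPM in Control 28D, above 3 of the 4 Control 0D libraries (0.30 ± 0.13, edgeR adjusted p = 0.21). Without Control 0D replicate 1 the count was 1.

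**Figure D3:**
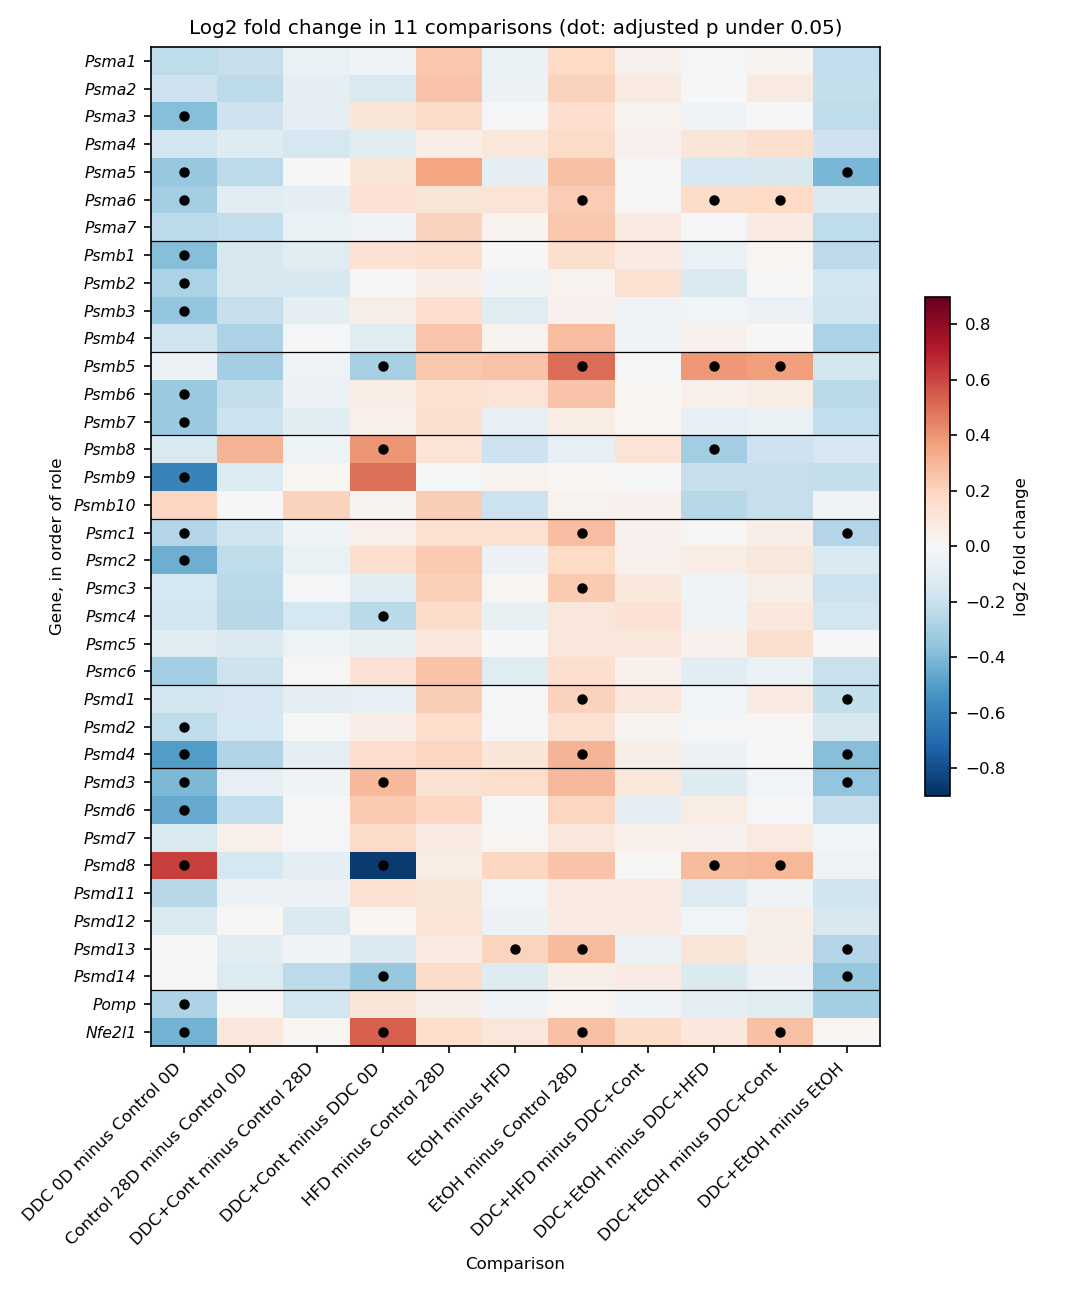
Log2 fold change of the 36 proteasome genes (rows, by role, lines between roles) in the comparisons of 2 groups (columns), red for higher and blue for lower in the group named first; black dots mark an edgeR adjusted p under 0.05. The dots gather in DDC 0D minus Control 0D (18), EtOH minus Control 28D (8) and DDC+EtOH minus EtOH (7).

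HFD and ethanol were compared next. HFD against Control 28D had 0 members called by edgeR (16 at an unadjusted p under 0.05, and 2 higher by DESeq2), with 0.376% of all genes called in either direction. The estimates were above 0 for 35 of 36 members, with a median of 0.15 against -0.0012 over all genes. Psma5 read 68.3, 63.3, 66.3, 73.0, 65.3 and 61.3 CPM in HFD and 49.1, 52.7, 54.4, 58.4 and 44.5 CPM in Control 28D. The groups of Psma5 did not overlap, and its log2 fold change was 0.35 ± 0.09 (edgeR adjusted p = 0.063). Psmd1 followed at 0.22 ± 0.06 (edgeR adjusted p = 0.14), then Psma2 (0.26), Psmc2 (0.23), Psmc3 (0.21) and Psmd4 (0.19). Without Control 28D replicate 12 the count was 1.

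Ethanol with HFD against BD (EtOH against Control 28D) raised 8 members and lowered 0, where 9.99% of all genes were called higher and 8.2% lower. The members' median was 0.18 against -0.0021 over all genes. Psmb5 led, with 85.5, 96.8, 99.4 and 96.4 CPM in EtOH and 67.4, 75.0, 69.8, 68.2 and 53.9 CPM in Control 28D. Every EtOH library lay above every Control 28D library, and the log2 fold change was 0.50 ± 0.12 (edgeR adjusted p = 0.0026). Exons of Psmb5 share 109 bases with the microRNA gene Mir686 on the same strand. Mir686 read 0 CPM in every library, and how reads of that stretch were counted is not given.

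The other genes called in that comparison came from the alpha ring, the base and the lid, with Nfe2l1. Psmd4 read 135, 105, 117 and 125 CPM in EtOH against 92.0 to 103 CPM in the Control 28D libraries (0.30 ± 0.08, edgeR adjusted p = 0.0060). Psmd13 of the lid was higher by 0.28 ± 0.07 (edgeR adjusted p = 0.0054). Its exons share 342 bases with Sirt3 on the other strand, which stood at 0.05 (edgeR adjusted p = 0.81). Psmc1 (0.27), Psmc3 (0.23), Psma6 (0.23) and Psmd1 (0.21) also rose. Exons of Psmc3 share 215 bases with Slc39a13 on the other strand, which was itself called higher (0.39 ± 0.14, edgeR adjusted p = 0.047). Nfe2l1 rose with them, at 155, 166, 149 and 153 CPM against 117, 115, 136, 141 and 140 CPM (0.26 ± 0.08, edgeR adjusted p = 0.021), and its groups did not overlap. Psmb8, Psmb9 and Psmb10 had estimates from -0.07 to 0.03 and none passed. The count was 4 without EtOH replicate 20 and 5 without EtOH replicate 22, without Control 28D replicate 10 or when the fit held no other groups, and was 15 with no scaling factor. Hepatocyte markers ran from 72221 to 81065 CPM in EtOH and from 79262 to 117489 CPM in Control 28D, and their part in these values was not tested.

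EtOH against HFD compares HFD with and without ethanol, and shares the EtOH libraries with the comparison above. Differences in feeding route or time between these groups were not examined. The members' median was -0.01 against -0.0049 over all genes, and the estimates lay below 0 for 20 of 36 members. Psmd13 was called higher (0.20 ± 0.07, edgeR adjusted p = 0.049), where 7.84% of all genes were called higher, and 0 members lower (5.61%). Psmd13 read 71.5, 58.5, 70.5 and 66.1 CPM in EtOH and 52.9 to 59.7 CPM in HFD, so the groups overlapped in 1 EtOH library. The call was lost in 12 of 17 other settings, among them those without any 1 of the 6 HFD libraries or without EtOH replicates 20, 22 or 23. Psmb5 stood at 0.26 ± 0.11 (edgeR adjusted p = 0.14), Psmc1 at 0.14, Psmd8 at 0.19, Psma6 at 0.12 and Psmb8 at -0.19, and none of these passed.

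After DDC, HFD alone gave no calls among the members. DDC+HFD against DDC+Cont had 0 of 36 by edgeR (1 at an unadjusted p under 0.05, 0 by DESeq2), with 3.4% of all genes called in either direction. Nfe2l1 had the smallest p (0.17 ± 0.07, edgeR adjusted p = 0.22).

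Ethanol after DDC (DDC+EtOH against DDC+HFD) gave 3 members higher (8.33%) and 1 lower (2.78%), where 8.53% of all genes were called higher and 8.02% lower. The share called higher was near that of all genes and the share called lower was below it. The members' median was -0.02 against -0.0086 over all genes. Psmb5 was again first. It read from 70.5 to 104 CPM in DDC+EtOH (median 83.9) and from 50.6 to 74.9 CPM in DDC+HFD (median 66.2), with overlap in a few libraries and a log2 fold change of 0.39 ± 0.10 (edgeR adjusted p = 0.0070). Psmd8 ran from 96.4 to 162 CPM (median 124) against 93.0 to 119 CPM (median 99.8), at 0.28 ± 0.09 (edgeR adjusted p = 0.030). Psma6 was higher by 0.17 ± 0.06 (edgeR adjusted p = 0.040). Psmb8 was lower, from 22.2 to 28.6 CPM (median 26.8) in DDC+EtOH against 27.3 to 38.6 CPM (median 32.1) in DDC+HFD (-0.31 ± 0.11, edgeR adjusted p = 0.044).

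Some immune markers differed between the same groups. All 6 tested neutrophil markers were called lower in DDC+EtOH (median log2 fold change -4.06), with a summed level of 9.53 to 42.3 CPM against 13.3 to 761 CPM in DDC+HFD. Of 6 tested T and NK cell markers 2 were called lower (median -0.57; summed level 2.82 to 5.99 CPM against 4.06 to 8.87 CPM), and of 6 general leukocyte markers 0 were called (204 to 274 CPM against 191 to 343 CPM). Of 7 macrophage markers 2 were called higher and 1 lower (median 0.015; 401 to 599 CPM against 298 to 615 CPM). Of 6 B and plasma cell markers 0 were called. The part of these markers in the value of Psmb8 was not tested.

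The 7 libraries with pancreatic transcripts include 5 of these 12, and without them 0 of the 4 members were called, with Psmb5 at 0.32 (edgeR adjusted p = 0.13) and Psmb8 at -0.38 (edgeR adjusted p = 0.10). A fit of these groups alone also called 0, and leaving out single libraries gave 1 to 4 calls, with 1 without DDC+HFD replicate 33 or DDC+EtOH replicate 38 and 2 without DDC+HFD replicates 32 or 35 or DDC+EtOH replicates 39 or 40.

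Against DDC+Cont, which received no HFD, DDC+EtOH had 4 members higher (12.4% of all genes were called higher) and 0 lower (11.2%). The members' share called higher, 11.1%, was near that of all genes. Nfe2l1 ran from 135 to 169 CPM (median 162) in DDC+EtOH and read 126, 118, 116, 147 and 152 CPM in DDC+Cont (0.26 ± 0.08, edgeR adjusted p = 0.0094). Psmb5 was higher by 0.38 ± 0.11 (edgeR adjusted p = 0.0095), Psmd8 by 0.30 and Psma6 by 0.18. The groups overlapped for all 4 genes. The count was 2 without the libraries that hold pancreatic transcripts and 0 when the fit held no other groups.

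Mice given ethanol with and without earlier DDC differed in 7 members, all lower in DDC+EtOH than in EtOH, where 2.57% of all genes were called lower and 4.12% higher (0 members). The estimates lay below 0 for 35 of 36 members, with a median of -0.21 against -0.0020 over all genes. Markers of other cells moved between the same groups, and their part was not tested. Of 8 bile duct markers 5 were called higher in DDC+EtOH (median log2 fold change 1.71; summed level 91.3 to 218 CPM against 50.6 to 63.1 CPM in EtOH). Of 7 macrophage markers 2 were called higher (median 0.81; 401 to 599 CPM against 383 to 443 CPM), as were 2 of 7 stellate cell markers (median 0.87; 431 to 717 CPM against 384 to 458 CPM), and 0 of 10 hepatocyte markers were called.

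Psmd4 read 85.6 to 98.2 CPM in the 6 DDC+EtOH libraries, below all 4 EtOH libraries (105 to 135 CPM), at -0.39 ± 0.08 (edgeR adjusted p = 0.0015). Psma5 stood at -0.41 ± 0.09 on the log2 scale (edgeR adjusted p = 0.0049), and Psmd13 (-0.26), Psmc1 (-0.26), Psmd14 (-0.34), Psmd3 (-0.35) and Psmd1 (-0.21) followed. The count was 2 without EtOH replicates 20 or 22, 3 without EtOH replicate 23 or DDC+EtOH replicates 39 or 40, 11 without DDC+EtOH replicate 38, 2 with no scaling factor and 0 when other groups were left out of the fit.

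Whether the ethanol effect differed with earlier DDC was tested as 1 contrast. It called 0 members by edgeR and by DESeq2 (0 at an unadjusted p under 0.05), and 0% of all genes in either direction by edgeR (739 at an unadjusted p under 0.05, and 1 higher and 3 lower by DESeq2). For Psmb5 the difference of the effects was 0.13 ± 0.15, and for Psmb8 it was -0.12 ± 0.16.

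The balance between an immunoproteasome subunit and the subunit it replaces was read as a log2 ratio of CPM within each library, which does not depend on the scaling. It was described with no test. For Psmb8 to Psmb5 the means were -1.78 ± 0.37 (SD, n = 4) in Control 0D and -1.81 ± 0.20 (n = 4) in DDC 0D. They were -1.13 ± 0.12 (n = 5) in Control 28D, -1.26 ± 0.27 (n = 6) in HFD, -1.13 ± 0.23 (n = 5) in DDC+Cont and -0.98 ± 0.18 (n = 6) in DDC+HFD. Both ethanol groups were lower than the other 4 groups with a second treatment, at -1.71 ± 0.15 (n = 4) in EtOH and -1.68 ± 0.12 (n = 6) in DDC+EtOH.

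Library by library, the log2 ratio of Psmb8 to Psmb5 was -1.58, -1.59, -1.78 and -1.88 in EtOH and -1.11, -1.33, -1.11, -1.09 and -0.99 in Control 28D. In DDC+EtOH it ran from -1.91 to -1.60 and in DDC+HFD from -1.24 to -0.77. Neither pair of groups overlapped. EtOH and HFD (-1.59 to -0.88) touched in 1 HFD library. The value of Control 0D replicate 1 was -1.23, against -1.93 or lower in the other Control 0D libraries.

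For Psmb10 to Psmb7 the mean log2 ratio was -2.18 ± 0.29 in Control 0D and -1.67 ± 0.18 in DDC 0D, with overlap through Control 0D replicate 1 (-1.75). It was -1.98 ± 0.14 in Control 28D and -1.68 ± 0.18 in DDC+Cont, with ranges of -2.16 to -1.84 and -1.85 to -1.41 that met at their ends. Psmb9 to Psmb6 ranged from -3.52 in DDC 0D to -3.11 in DDC+Cont by group mean, with SDs of 0.08 to 0.64. All neighbouring groups overlapped in that ratio.

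**Figure D4:**
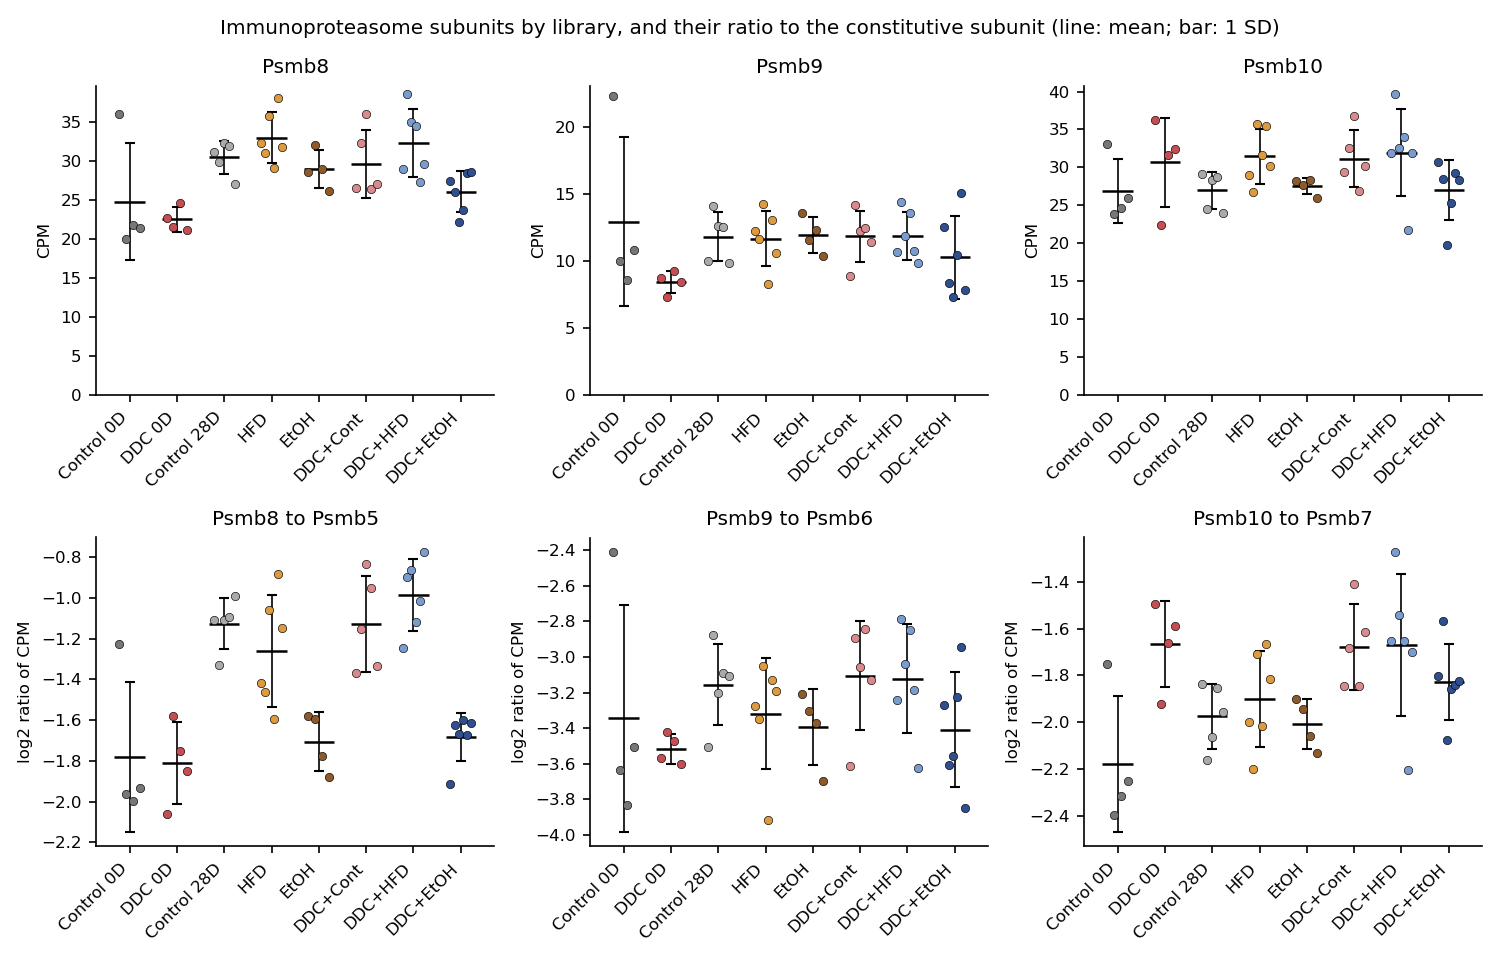
Top, CPM (TMM-scaled) of Psmb8, Psmb9 and Psmb10 in each library by group; bottom, log2 ratio of each to the constitutive subunit it replaces. Points are libraries, lines group means and bars 1 SD. For Psmb8 to Psmb5, the EtOH and DDC+EtOH libraries (-1.91 to -1.58) lie below those of Control 28D, DDC+Cont and DDC+HFD.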

How the data were processed

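Per the labels' protocols, total RNA of snap-frozen livers was made into libraries with a TruSeq mRNA kit. The authors deposited 1 table of raw counts per library, whole numbers of reads per gene. Per the submitters' processing notes, the genome build was mm10 and the tools included GSNAP and DESeq2 1.12.3, with no roles stated. No source used here gives the counting program, the annotation or the strand setting. From 41.0% to 51.8% of a library's reads were on genes. Rows for reads with no gene, or aligned to more than 1 place, were kept out of library totals and tests.

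Counts of all 40 libraries were fitted together in edgeR 4.0.16 (R 4.3.3) with TMM factors, the default low-count filter by group and the robust quasi-likelihood test. Benjamini-Hochberg adjustment ran over all 14355 genes tested, and a call is an adjusted p under 0.05. Standard errors were computed from the fold change and its F statistic. CPM is the count divided by the library total times its TMM factor, on the usual scale of that unit. The fit was tested on simulated data first. Alternatives were RLE size factors, no filter or a stricter filter, sequencing lane as a term (6 lanes, read from the deposited names), only the groups compared, DESeq2 1.42.0, each library left out, and the 7 libraries with over 1000 CPM of 15 pancreatic transcripts left out. Ratios were also taken after adding 1 CPM. A fit with no scaling factor was added after seeing the data.

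The members and lists were chosen with earlier results of these data known. Any of the 36 genes could be named. Values by library are given for the immunoproteasome genes, their constitutive partners, Nfe2l1, Pomp and, for DDC 0D against Control 0D, the 2 genes per role with the smallest adjusted p, while other comparisons name up to 6 members, or all those called. Up to 6 called genes per list are named, by adjusted p, and 1 such gene is not reported here.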

Additional observations from a re-analysis of the deposited data

Results flagged for a closer look

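Within a group, 19 of 288 combinations of gene and group had 1 library that stood apart by Dixon's test at 95%, where chance gives about 1 in 20. Replicate 19 of HFD was low for Psmb4 (110.0 CPM), Psmb6 (96.7 CPM), Psmc3 (92.8 CPM) and Psmd13 (52.9 CPM). Replicate 28 of DDC+Cont was low for Psmb4 (87.0 CPM) and high for Psmc5 (46.5 CPM) and Psmd7 (55.9 CPM). Replicate 6 of DDC 0D was low for Psma2 (64.6 CPM) and Psmb6 (78.3 CPM). Replicate 1 of Control 0D was high for the immunoproteasome genes Psmb8 (36.1 CPM, the others 20.0 to 21.8 CPM) and Psmb9 (22.2 CPM, the others 8.57 to 10.8 CPM).

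Replicate 13 of Control 28D was low for Psma2 (55.5 CPM) and high for Psmd7 (52.9 CPM), and replicate 12 of that group was high for Psma6 (81.5 CPM). Replicate 2 of Control 0D was high for Psmc4 (106 CPM) and low for Pomp (81.3 CPM). Single libraries also stood apart for Psma5 in DDC+HFD replicate 35 (61.6 CPM), Psmb6 in DDC+HFD replicate 37 (121 CPM) and Psmc6 in DDC+EtOH replicate 41 (55.2 CPM).

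The DDC effect differed between 28D and 0D, by edgeR's test of the difference, for Psmd8 (-0.70 on the log2 scale), Nfe2l1 (0.44), Psmd4 (0.42), Psmc2 (0.38) and Psmd6 (0.45).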

How the results depend on the processing

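Of 54 calls among the proteasome genes over all comparisons, 24 were kept under every other setting except the fit with no scaling factor, and 30 were lost under at least 1. For DDC 0D against Control 0D, 14 of 18 were kept. No paired analysis was possible because the groups share no replicate numbers. The cause of the changes listed here was not tested. Psmb9 had 76 to 331 counts per library and a standard error of 0.22 in DDC 0D against Control 0D, where Control 0D replicate 1 stood apart.

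With no scaling factor the number of members called was 6 for DDC 0D against Control 0D (18 as reported), 1 for Control 28D against Control 0D (0), 3 for the difference of the DDC effects (5), 22 for DDC+Cont against DDC 0D (7), 2 for HFD against Control 28D (0), 15 for EtOH against Control 28D (8) and 2 for DDC+EtOH against EtOH (7). That scaling turned the sign of 10 member calls. In DDC 0D against Control 0D the log2 fold changes became 0.011 for Psma5, 0.042 for Psma6, 0.067 for Psmb2, 0.0073 for Psmb3, 0.019 for Psmb6, 0.024 for Psmb7, 0.089 for Psmc1, 0.13 for Psmd2 and 0.078 for Pomp. Among list genes they became 0.055 for Psme4, 0.12 for AI314180, 0.052 for Nploc4, 0.076 for Derl1, 0.016 for Keap1 and 0.11 for Uba1. In DDC+Cont against DDC 0D they became -0.0089 for Psmd3, -0.039 for Ngly1, -0.064 for Keap1, -0.050 for Rad23b and -0.028 for Erap1.

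With only the groups compared in the fit, the counts were 2 for Control 28D against Control 0D, 10 for the difference of the DDC effects, 1 for HFD against Control 28D, 5 for EtOH against Control 28D, and 0 for DDC+EtOH against DDC+HFD, against DDC+Cont (4 as reported) and against EtOH. With no low-count filter they were 10 for the difference of the DDC effects, 0 for EtOH against HFD, 2 for DDC+EtOH against DDC+HFD and 4 for DDC+EtOH against EtOH. With lane as a term they were 2 for Control 28D against Control 0D, 2 for EtOH against HFD and 2 for DDC+EtOH against DDC+HFD. DESeq2 gave 1 for Control 28D against Control 0D and 2 for HFD against Control 28D, and RLE factors gave 0 for EtOH against HFD. Without the libraries that hold pancreatic transcripts, DDC+EtOH had 0 against DDC+HFD and 2 against DDC+Cont.

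Leaving out 1 library gave 0 to 1 calls for Control 28D against Control 0D, 4 to 9 for the difference of the DDC effects, 0 to 1 for HFD against Control 28D, 0 to 1 for EtOH against HFD, 4 to 9 for EtOH against Control 28D, 1 to 4 for DDC+EtOH against DDC+HFD and 2 to 11 for DDC+EtOH against EtOH. Of 144 alternatives for the ratios 1 moved beyond the spread between libraries, Psmb9 to Psmb6 in DDC 0D, at -3.37 after adding 1 CPM.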

Other observations

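Single genes around the proteasome also differed with ethanol. Sqstm1, the autophagy receptor p62, rose from 422 to 707 CPM between HFD and EtOH (log2 fold change 0.74 ± 0.16, edgeR adjusted p = 0.0015) and from 405 to 651 CPM between DDC+HFD and DDC+EtOH (0.69 ± 0.15, edgeR adjusted p = 0.0011). Maff, a small MAF partner of NRF1 and NRF2, rose from 1.96 to 6.41 CPM without DDC (1.71 ± 0.30, edgeR adjusted p = 0.00011) and from 3.28 to 10.6 CPM after DDC (1.67 ± 0.27, edgeR adjusted p = 2.2e-05). Nlrc5, an activator of MHC class I genes, fell from 42.6 to 30.2 CPM without DDC (-0.50 ± 0.16, edgeR adjusted p = 0.036) and from 47.9 to 34.0 CPM after DDC (-0.49 ± 0.14, edgeR adjusted p = 0.015), and the call after DDC was lost without the libraries that hold pancreatic transcripts (edgeR adjusted p = 0.085).

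In EtOH against HFD, 1 of 17 other subunits and regulators rose (Psme1, a subunit of the activator cap induced by interferon gamma, 0.28) and 1 fell (Uchl5, a deubiquitinase of the cap, -0.31), near the shares of all genes called higher (7.84%) and lower (5.61%). In EtOH against Control 28D, 6 of 15 genes of NRF1 processing and its partners rose, where 9.99% of all genes were called higher, and Ddi2 fell (-0.50 ± 0.14, edgeR adjusted p = 0.0087). Ubb, a ubiquitin gene, rose from 136 to 240.1 CPM in that comparison, which joins HFD and ethanol (0.82 ± 0.14, edgeR adjusted p = 5.1e-05). Ubb was not called in EtOH against HFD (0.38, edgeR adjusted p = 0.057) or in DDC+EtOH against DDC+HFD (0.06, edgeR adjusted p = 0.79). It was called higher in DDC+HFD against DDC+Cont (0.57, edgeR adjusted p = 0.010), and stood at 0.44 in HFD against Control 28D (edgeR adjusted p = 0.15). Cxcl10, a chemokine induced by interferon gamma, rose from 1.77 to 6.35 CPM between DDC+HFD and DDC+EtOH (1.92 ± 0.32, edgeR adjusted p = 3.8e-05).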
